A study of Homo sapiens with 6 samples.

Results

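The genes described here are 10 antiviral factors that cut, unwind or bind RNA, namely ISG20, SHFL, HELZ2, ZNFX1, ZC3HAV1, KHNYN, N4BP1, XRN1, MOV10 and ZC3H12A. They were taken by symbol from a table of 62710 Ensembl genes, in which each of the 10 had a single row, and all 10 were high enough to be tested. RNA was sequenced from HT1080 cells, an established human fibrosarcoma line, either left untreated (3 libraries) or kept for 24 h with IFNβ at 20 ng/mL (3 libraries). The sample labels name human IFNβ for these cells, as do the study's cell culture methods, whereas its RNA sequencing methods name the mouse protein. Neither group carries a transgene or a second agent, and both are of 1 cell line. The study's methods describe in vitro experiments in general as independent biological replicates, but neither they nor the labels say that the libraries of a group came from separate cultures. The p-values measure the spread between these libraries, which may be technical.

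Cells that sense a type I interferon switch on a large set of genes through transcription factors that the receptor activates. Many of the products act on RNA. Exonucleases such as ISG20 and XRN1 digest RNA from an end, NYN-domain endonucleases such as N4BP1, KHNYN and ZC3H12A cut within it, and helicases such as MOV10 remodel RNA and the proteins on it. ZC3HAV1, known as ZAP, has no nuclease activity of its own. It binds RNA that is rich in CpG dinucleotides and recruits other proteins, among them KHNYN and the ubiquitin ligase TRIM25, to degrade or silence it.

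Levels are FPKM, the fragments of a gene scaled to its length and to the depth of the library, and can therefore be compared between genes. The library depth used was 22848104 to 32915500 fragments. For 17101 of the 35303 genes above 0, FPKM values were whole multiples of the value of 1 fragment at the annotated exon length, to within 0.01 fragments. With a searched length for the others, fragments were recovered for 35302 genes. Whole numbers at a searched length are a result of the search and not a check of it. The 10 factors had between 164 and 31127 fragments in a library. These rest on the annotated exon length for 4 of the 10 and on a searched length for the others. In bulk RNA, more cells that hold a transcript and more transcript per cell cannot be told apart. Markers of mesenchymal and other cell types were checked, which describe the type of cell but do not identify the line as HT1080. All 7 mesenchymal genes checked had a mean FPKM of at least 0.1, with a summed FPKM of 844 to 899 in untreated and 806 to 847 in IFNβ-treated libraries. Of the other cell types, 0 of 4 leukocyte genes (summed FPKM 0.0282 to 0.139 untreated and 0.0461 to 0.0936 treated), 0 of 4 epithelial genes (0.00720 to 0.0222 and 0.0658 to 0.0713) and 1 of 4 endothelial genes (0.268 to 0.421 and 0.471 to 0.530) reached that level. EPCAM was at 0 in the 3 untreated libraries, and no marker was at 0 in all 6. The epithelial and endothelial sums were higher after IFNβ. The epithelial genes had at most 4 fragments in any library, and the mean of CDH1 was lower. Of the endothelial genes, PECAM1 (log2 fold change 0.20) and KDR overlapped between groups. CDH5 and VWF did not, on at most 17 fragments. The part that these transcripts may play in the results was not tested.

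The interferon-stimulated response element (ISRE), a site bound by interferon-activated transcription factors, was searched for in RefSeq promoter windows (GRCh38.p14) from 250 bases before to 50 bases after a gene's start. Of the 10 factors, 9 had a window by symbol, 13 windows in all. ISG20 and SHFL each held 2 copies of GAAA with any 2 bases between them, followed by any 2 bases and G, on the gene's own strand. They were the only 2 of the 9 factors with a window to hold this motif. They are shown for that reason, with the match in capitals within 30 bases, 5′ to 3′.
ISG20 (chr15:88638939-88638968, plus strand): acaaactaGAAACTGAAACAGggtcgggat
SHFL (chr19:10086266-10086295, plus strand): cctgaatcGAAAGCGAAACAGgggccgggg

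Counted from the RefSeq start, where the base before it is -1, the first base of the match was at -69 in ISG20 and at -43 in SHFL. In GENCODE release 29, both lie within exons of annotated transcripts, 3 of ISG20 and 2 of SHFL. They are thus upstream of the RefSeq start used here and inside other annotated transcripts. The shorter core without the last 3 bases, which the longer form contains, was found in these same 2 factors and in 3.57% of all 35116 windows (0.988% for the longer form), on either strand. By gene, 88 of 348 genes called higher after IFNβ that had a window held the core (25.3%), against 472 of 11537 genes tested that had one (4.09%).

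A γ-activated site (TTC, any 3 bases, GAA, which reads the same on both strands) occurred in windows of ZC3HAV1 and KHNYN. These are 2 of the 9 factors with a window, and neither was called higher. The site was in 7.66% of all windows. By gene, it was in 57 of 348 called higher after IFNβ (16.4%) and in 997 of 11537 tested (8.64%). It is printed for ZC3HAV1, with the 150 bases before its start, and beside it the same stretch of HELZ2, the factor with the largest change, whose 2 windows held neither motif. Capitals mark the γ-activated site.
ZC3HAV1 (chr7:139109721-139109870, minus strand): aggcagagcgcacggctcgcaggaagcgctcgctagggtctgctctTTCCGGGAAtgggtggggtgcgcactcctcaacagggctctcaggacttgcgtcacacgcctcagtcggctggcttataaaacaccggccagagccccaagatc
HELZ2 (chr20:63574240-63574389, minus strand): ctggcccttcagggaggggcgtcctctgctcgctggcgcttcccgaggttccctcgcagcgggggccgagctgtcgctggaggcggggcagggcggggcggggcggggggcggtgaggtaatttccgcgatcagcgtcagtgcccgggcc

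These matches are descriptions of the letters. They do not show binding, and a window without a match says only that these letters are not in it.

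The effect of IFNβ was tested by limma on the scale of log2(FPKM + 0.1). The test covered 20716 genes whose FPKM averaged 0.1 or more, and genes were called when the Benjamini-Hochberg adjusted p-value was under 0.05 and the absolute log2 fold change at least 1. After 24 h of IFNβ, 7 of the 10 factors were called higher, HELZ2, SHFL, ISG20, MOV10, ZNFX1, XRN1 and N4BP1. Over all genes tested, 3.49% were called higher and 0.739% lower (4.22% in either direction). The other 3 factors, ZC3HAV1, ZC3H12A and KHNYN, had adjusted p-values under 0.05 but log2 fold changes under 1. By adjusted p-value alone all 10 were higher, against 15.2% of all genes higher, 17.5% lower and 32.7% in either direction. In all 10, every treated library lay above every untreated library, a separation in this direction found for 22.3% of the genes tested (46.6% in either direction). The median log2 fold change of the 10 was 1.47, and that of all genes tested was 0.00017. As a check of the treatment, 5 interferon-stimulated genes (IFIT1, MX1, ISG15, OAS1 and IFI6) were all called higher, with log2 fold changes from 6.39 to 8.67. Gene bodies below are from GENCODE release 29 on GRCh38.

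**Figure D1:**
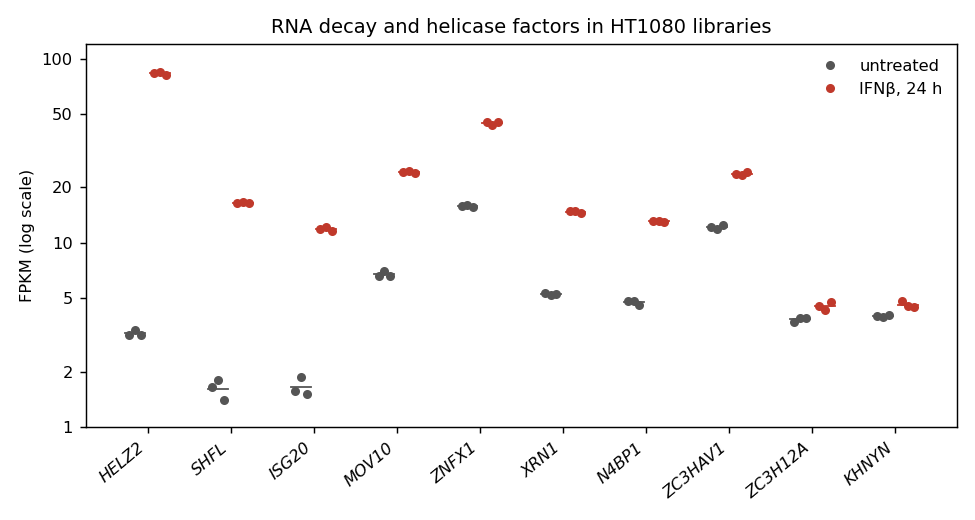
FPKM on a log scale for each of the 10 factors, with 1 point per library and a line at the mean of the 3 untreated (grey) and 3 IFNβ-treated (red) libraries. HELZ2 moved from a mean of 3.24 to 83.3 FPKM, whereas ZC3H12A and KHNYN stayed between 3.72 and 4.86 FPKM in all libraries.

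Among the helicases, HELZ2 changed most. HELZ2 (ENSG00000130589, chromosome 20 from 63558086 to 63574239) encodes a large zinc finger helicase known as a coactivator of nuclear receptors. It had 3.15, 3.39 and 3.17 FPKM in the untreated libraries and 83.8, 84.4 and 81.8 FPKM after IFNβ. The lowest treated library was 24.1 times the highest untreated one, far beyond the spread within either group. The means were 3.24 ± 0.132 and 83.3 ± 1.37 FPKM (S.D., n = 3 each), 25.7 times apart. On the log2 scale the difference was 4.64 ± 0.03 (standard error, SE; adjusted p = 4.44e-09 by limma). This log2 fold change ranked 42 among the 20716 genes tested.

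MOV10 (ENSG00000155363, chromosome 1 from 112673141 to 112700746), an RNA helicase that works with Argonaute proteins and restricts retroelements, had 6.64, 7.08 and 6.61 FPKM in untreated cells and 24.4, 24.5 and 24.0 FPKM after IFNβ. Every treated library was at least 3.38 times as high as any untreated one. The log2 fold change was 1.83 ± 0.03 (SE, adjusted p = 2.73e-07 by limma), and the treated mean was 3.58 times the untreated one. A total of 145 bases of its exons, 2.23%, overlap the antisense gene ENSG00000225075, which had 2 to 6 fragments in untreated and 13 to 16 in treated libraries. It was itself called higher (log2 fold change 1.74, adjusted p = 0.0041 by limma), though not with a pseudocount of 1 (0.74). Without knowing whether strand was counted, its fragments cannot be told apart from those of MOV10.

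ZNFX1 (ENSG00000124201, chromosome 20 from 49237946 to 49278426), a helicase-domain protein that senses double-stranded RNA, had the highest FPKM of the 10 in untreated cells. It had 15.8, 16.0 and 15.7 FPKM without and 45.2, 43.5 and 45.2 FPKM with IFNβ. The 3 untreated libraries differed by less than the treated ones did, and the groups were far apart. ZNFX1 had a log2 fold change of 1.49 ± 0.02 (SE, adjusted p = 1.16e-07 by limma). Its exons overlap DDX27 over 203 bases and the noncoding RNA ZFAS1 over 249 bases, both on the other strand. Neither was called (log2 fold changes 0.03 and -0.03).

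Both exonucleases among the 10 rose as well. ISG20 (ENSG00000172183, chromosome 15 from 88636153 to 88656483), which degrades single-stranded RNA from the 3′ end, had 1.57, 1.87 and 1.51 FPKM in untreated cells and 11.9, 12.2 and 11.5 FPKM after IFNβ. All 3 treated libraries were at least 6.17 times as high as any untreated library. For ISG20 the log2 fold change was 2.78 ± 0.08 (SE, adjusted p = 2.51e-06 by limma), on 257 to 399 fragments per untreated library.

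XRN1 (ENSG00000114127, chromosome 3 from 142306607 to 142448062), the main cytoplasmic exonuclease acting from the 5′ end, had 5.36, 5.25 and 5.29 FPKM in untreated and 14.8, 14.8 and 14.6 FPKM in treated libraries. Within each group the libraries lay close together, and the groups were far apart. Treated cells had 2.78 times the untreated mean, with a log2 fold change of 1.46 ± 0.02 (SE, adjusted p = 1.98e-07 by limma).

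Of the 3 NYN-domain endonucleases, only N4BP1 was called. N4BP1 (ENSG00000102921, chromosome 16 from 48538726 to 48620148) degrades viral RNA and also restrains NF-κB signalling. It had 4.85, 4.83 and 4.59 FPKM without and 13.2, 13.2 and 13.0 FPKM with IFNβ. The treated libraries were 2.68 to 2.87 times the untreated ones over the 9 possible pairs. N4BP1 had a log2 fold change of 1.44 ± 0.03 (SE, adjusted p = 6.85e-07 by limma).

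KHNYN (ENSG00000100441, chromosome 14 from 24429286 to 24441834), the nuclease that works with ZAP, had 4.04, 3.95 and 4.06 FPKM in untreated and 4.86, 4.53 and 4.51 FPKM in treated libraries. The groups did not overlap, but the gap between the closest libraries was small beside those of the genes above. Its log2 fold change was 0.20 (95% interval 0.10 to 0.31, adjusted p = 0.013 by limma). On the other strand, SDR39U1 covers 2037 of its exon bases (25.4%) and CBLN3 another 315, with log2 fold changes of -0.29 and 0.28 that were not called. SDR39U1 had 104 to 177 fragments in a library and KHNYN 740 to 1202. Here too, without knowing whether strand was counted, fragments of the shared bases cannot be told apart. Their part in the small change of KHNYN was not tested.

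ZC3H12A (ENSG00000163874, chromosome 1 from 37474552 to 37484379) encodes Regnase-1, an endonuclease best known for cutting inflammatory cytokine mRNAs. Its values were 3.72, 3.90 and 3.91 FPKM in untreated and 4.56, 4.35 and 4.80 FPKM in treated libraries. The treated libraries were again all higher, by 1.11 to 1.29 times. The log2 fold change was 0.24 (95% interval 0.12 to 0.36, adjusted p = 0.011 by limma), an interval that lies wholly under the fold threshold. The microRNA gene MIR6732 lies within its exons and was listed at 0 in all libraries.

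The remaining factors bind RNA without cutting it. SHFL (ENSG00000130813, chromosome 19 from 10086122 to 10093252), which blocks programmed ribosomal frameshifting on viral RNA, had 1.65, 1.81 and 1.41 FPKM in untreated and 16.4, 16.6 and 16.5 FPKM in treated libraries. The relative spread was wider in untreated cells, where it rested on 164 to 233 fragments, than after IFNβ. Its log2 fold change was 3.28 ± 0.08 (SE, adjusted p = 1.45e-06 by limma). On the other strand, 735 of its exon bases (16.9%) overlap ENSG00000267387, with 1 to 3 fragments in untreated and 6 to 18 in treated libraries, and 442 overlap ANGPTL6, with 3 to 5 fragments in every library. ENSG00000267387 was called higher (log2 fold change 1.45), but not with a pseudocount of 1 (0.33), with the replicate number as a block (adjusted p = 0.052 by limma), or without untreated replicate 3 (0.057), IFNβ replicate 1 (0.070) or IFNβ replicate 3 (0.071).

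ZC3HAV1 (ENSG00000105939, chromosome 7 from 139043520 to 139109719), the gene of ZAP, came closest to the threshold without passing it. It had 12.2, 11.8 and 12.6 FPKM without and 23.7, 23.4 and 24.1 FPKM with IFNβ. The treated mean was 1.94 times the untreated one and the groups were clearly apart. The log2 fold change was 0.95 (95% interval 0.88 to 1.02, adjusted p = 2.95e-06 by limma), so the interval reaches to both sides of the fold threshold. The long and short protein isoforms of ZAP cannot be separated at the level of the gene.

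**Figure D2:**
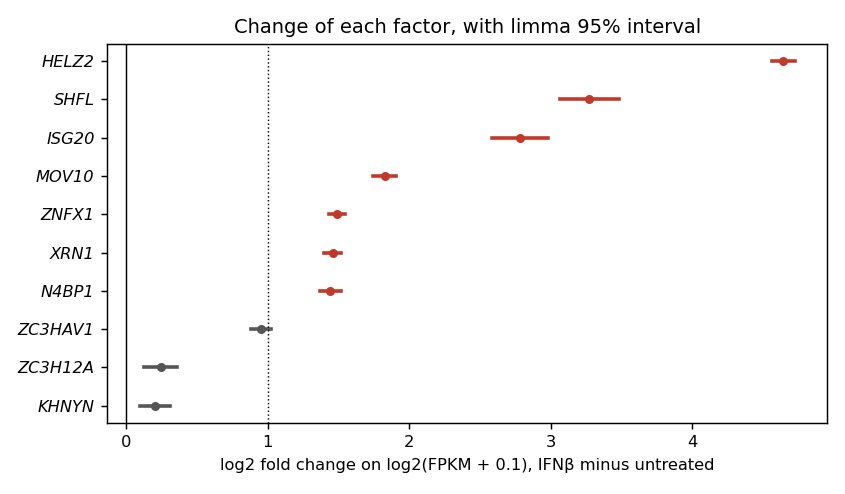
Log2 fold change of each factor (IFNβ minus untreated, on log2(FPKM + 0.1)) as a point with its limma 95% interval as a bar, red where called and grey where not. The dotted line is the fold threshold at 1, which the interval of ZC3HAV1 (0.88 to 1.02) crosses and those of ZC3H12A and KHNYN do not reach.

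The order of the 10 factors by FPKM, which depends on the gene lengths used, differed between the groups. In untreated cells, mean FPKM fell in the order ZNFX1, ZC3HAV1, MOV10, XRN1, N4BP1, KHNYN, ZC3H12A, HELZ2, ISG20 and SHFL. Neighbours in this order did not overlap between libraries, except ISG20 and SHFL. After IFNβ the order was HELZ2, ZNFX1, MOV10, ZC3HAV1, SHFL, XRN1, N4BP1, ISG20, KHNYN and ZC3H12A, with overlap between MOV10 and ZC3HAV1 and between KHNYN and ZC3H12A. HELZ2 thus went from rank 8 to rank 1, and from 5.46% to 34.5% of the summed FPKM of the 10. That sum was 59.2 ± 0.589 FPKM in untreated and 241 ± 1.36 FPKM in treated libraries (S.D., n = 3 each). By the ratio of treated to untreated libraries, HELZ2, SHFL, ISG20 and MOV10 were each separated from the next gene in the order. The ratios of ZNFX1 overlapped those of XRN1, those of XRN1 overlapped those of N4BP1, and those of ZC3H12A overlapped those of KHNYN.

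The cofactors and relatives of these factors were then examined. TRIM25, the ubiquitin ligase that ZAP needs for full activity, rose from 16.1, 15.2 and 15.9 FPKM to 37.9, 36.4 and 36.7 FPKM (log2 fold change 1.23 ± 0.03, adjusted p = 1.01e-06 by limma). PARP12, a CCCH zinc finger relative of ZAP, rose from 2.37, 1.95 and 2.22 FPKM to 18.1, 17.2 and 18.4 FPKM (log2 fold change 2.98 ± 0.07, adjusted p = 1.03e-06 by limma). TRIM25 and PARP12 were the only genes called among 21 tested relatives and cofactors (9.52%), against 4.22% of all genes tested. The 21 came from lists of the ISG20 family, NYN nucleases, UPF1-like helicases and ZAP partners without the 10 factors. Both called genes were among 6 of the ZAP list, and 0 were called in the other lists. A further 4 relatives, ZC3H12B, ZC3H12D, NYNRIN and MOV10L1, were under the filter, with at most 26 fragments in any library.

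Each factor other than SHFL was compared with a related gene within each library, in 10 pairs fixed by family. The ratio of factor to relative did not overlap between groups in 9 pairs, and in 8 of them the factor gained on its relative. The share of separated ratios among other gene pairs was not computed. By single gene, 46.6% of all those tested did not overlap in either direction. Among genes more like the paired ones the share was larger. It was 14 of the 21 relatives and cofactors, and 56 of the 80 general decay genes described below. The log2 fold change of ISG20 exceeded that of ISG20L2 by 2.98 and that of AEN by 2.85. HELZ2 exceeded HELZ by 4.54, ZNFX1 exceeded HELZ by 1.39, and MOV10 exceeded UPF1, the helicase of nonsense-mediated decay, by 2.00. For XRN1 and its nuclear counterpart XRN2 the difference was 1.60, since XRN2 had 68.8, 68.0 and 68.3 FPKM in untreated and 62.7, 62.7 and 61.2 FPKM in treated libraries.

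N4BP1 exceeded MARF1 by 1.41 and ZC3HAV1 exceeded ZC3HAV1L by 1.48. KHNYN lost ground to N4BP1, itself 1 of the 10 factors and called higher, with a difference of -1.24. The ratio of ZC3H12A to ZC3H12C overlapped between groups (difference 0.03, exact permutation p = 0.60). For each of the other 9 pairs the two-sided exact permutation p was 0.10, the smallest that 3 against 3 libraries allow, and 0.11 after Benjamini-Hochberg adjustment over the 10 pairs, so this test could not pass 0.05.

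**Figure D3:**
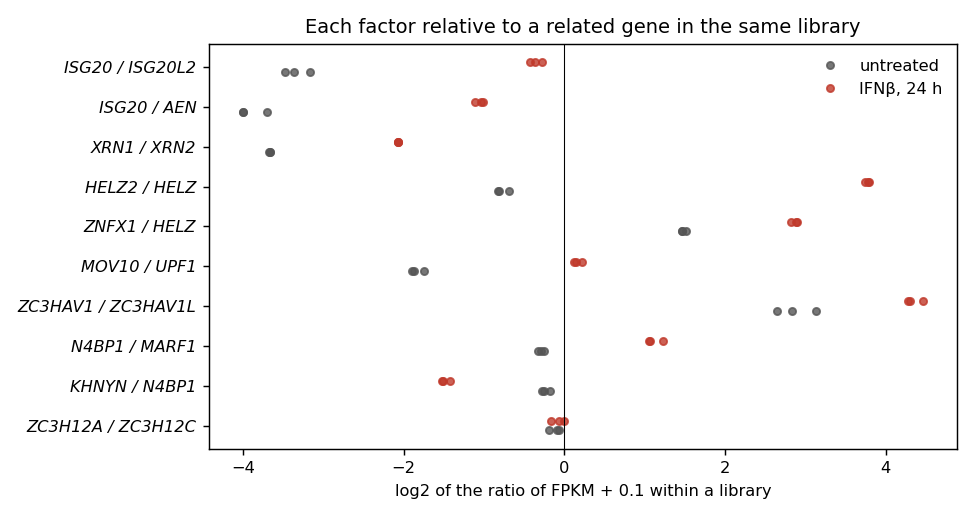
Log2 ratio of FPKM + 0.1 of each factor to a related gene within each library, with 3 untreated (grey) and 3 IFNβ-treated (red) points per pair. The groups are apart in 9 of 10 pairs, ISG20 with AEN moving from a mean of -3.90 to -1.05, and overlap for ZC3H12A with ZC3H12C.

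The general RNA decay machinery was examined next. Of 80 other genes for decapping and decay from the 5′ end, the RNA exosome, deadenylation, nonsense-mediated decay, binding of AU-rich or stem-loop elements, and the Argonaute complex, limma called 0, beside 4.22% of all genes. At an unadjusted p-value under 0.05, 25 of them lay higher and 30 lower, beside 4062 and 4556 of all 20716 genes tested. Of the 80, limma-voom on the recovered fragments also called 0, and of all genes 1105. The log2 fold changes of the 80 ran from -0.52 to 0.67 with a median of -0.02. By adjusted p-value alone, without a fold threshold, 22 lay higher and 25 lower (27.5% and 31.2% of the 80), against 15.2% and 17.5% of all genes tested. The genes tested include many at low FPKM, since only 11996 of the 20716 averaged 1 FPKM or more. The shares among genes of similar FPKM were not computed.

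The furthest values belonged to the decapping activator DCP1A (5.66, 5.90 and 6.06 FPKM against 9.93, 8.96 and 9.33) and to the deadenylation adaptor TOB1 (log2 fold change 0.66) on the higher side. On the lower side they belonged to UPF3B of nonsense-mediated decay (log2 fold change -0.52) and the deadenylase CNOT7 (-0.42). Of the 18 exosome genes, 14 had a negative log2 fold change, against 10355 of all 20716 genes tested. By adjusted p-value alone, 7 of the 18 lay lower and 3 higher. The lowest was HBS1L at -0.39, and the median was -0.10. The largest values in the other lists were 0.44 for ZFP36 of the element-binding proteins and 0.39 for AGO4 of the Argonaute list. Among the relatives they were 0.21 for the NYN nuclease ZC3H12C and -0.22 for the ISG20-related REXO2. XRN1 was thus the 1 gene called among the 18 of the decapping and 5′-end decay list.

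**Figure D4:**
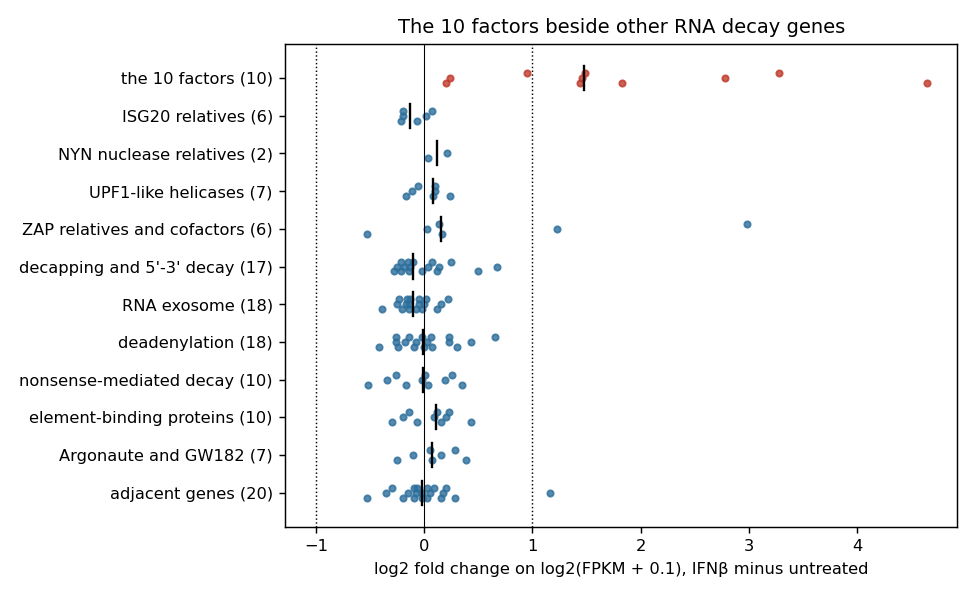
Log2 fold change (IFNβ minus untreated, on log2(FPKM + 0.1)) of each tested gene, 1 point per gene, for the 10 factors (red) and for lists of other RNA decay genes and the genes adjacent to the factors (blue), with the median as a black bar and the fold threshold as dotted lines. The 10 factors have a median of 1.47, and outside them only PARP12, TRIM25 and HAPLN3 pass 1.

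The genes adjacent to the 10 factors on the chromosome were also listed. Of the 20 nearest tested protein-coding genes, 1 on each side, HAPLN3 alone was called, a share close to that over all genes, and the median log2 fold change was -0.02. HAPLN3, 220804 bases from ISG20, rose from 1.49, 1.71 and 1.63 FPKM to 3.44, 3.94 and 3.84 FPKM (log2 fold change 1.17 ± 0.08, adjusted p = 1.02e-04 by limma). With a pseudocount of 1 its log2 fold change was 0.86 and it was not called. AEN, on the other side of ISG20 at 3870 bases, is also an exonuclease of the same family and had 26.4, 25.6 and 25.6 FPKM in untreated and 24.5, 24.7 and 25.1 FPKM in treated libraries (log2 fold change -0.06, adjusted p = 0.074 by limma).

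A second pair of relatives lies side by side on chromosome 7. ZC3HAV1L, 7490 bases from ZC3HAV1, had 1.64, 1.81 and 1.34 FPKM in untreated and 0.975, 1.09 and 1.16 FPKM in treated libraries. Its values ran opposite to those of ZC3HAV1, without passing the fold threshold (log2 fold change -0.53, adjusted p = 0.022 by limma). MOV10 stands 1521 bases from CAPZA1 and 359 bases from RHOC, with log2 fold changes of -0.07 and -0.02. ATR, 1172 bases from XRN1, had a log2 fold change of -0.02.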

How the data were processed

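The authors deposited 1 FPKM value per Ensembl gene and library, and no replicates were pooled. The submitters' processing notes name fastp, HISAT2, StringTie and GRCh38. The annotation, the gene lengths and whether strand was counted are not given in the sources used here. Gene IDs were paired with symbols through a name table. Fragments were recovered as whole numbers, to within 0.01 fragments at GENCODE release 29 exon lengths or else as the smallest whole proportions, for 35302 of 35303 genes above 0.

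Groups came from the sample titles. limma 3.58.1 (R 4.3.3; lmFit, eBayes with trend) was run on log2(FPKM + 0.1) over genes averaging 0.1 FPKM or more and without covariates. On this scale the fold changes of weakly expressed genes come out too small. The study's own DESeq2 test needs counts, which FPKM are not. Relatives were compared by exact permutation (scipy 1.17.1).

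The 10 factors and all gene lists were chosen with earlier results of these data known. Named were the 10 factors, genes called in each list (otherwise the gene with the largest absolute change), the paired relatives, TRIM25, adjacent genes that were called and genes with overlapping exons. Other adjacent genes (CAPZA1, RHOC, ATR) and the list gene CNOT7 were picked after their values were seen. A member of the helicase list and one of the treatment check are not reported here.

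Same-numbered libraries of the 2 groups did not deviate together (correlations of 0.05, -0.02 and 0.12), so they were not treated as pairs. Alternatives were other pseudocounts, filters, scalings, thresholds, a replicate block, limma-voom and each library left out.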

Additional observations from a re-analysis of the deposited data

How the results depend on the processing

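The same 7 factors were called under each of 17 alternatives that kept the fold threshold, and all 10 without it. Their log2 fold changes kept their sign in all 18. HELZ2 ranged from 4.32 to 4.68, SHFL from 2.74 to 3.36, ISG20 from 2.29 to 2.87 and ZC3HAV1 from 0.91 to 0.97. With the replicate number as a block, 7 factors and 829 of all genes were called, and the block changed no call among the factors. With single libraries left out, 7 factors and 809 to 867 of all genes were called.

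Of all genes, 875 were called, against 304 with a pseudocount of 1, 425 with a mean FPKM of at least 1 (11996 genes tested) and 6778 without the fold threshold. Without that threshold, 58 other decay genes passed in place of 2, and 9 adjacent genes in place of 1. With a pseudocount of 1, 0 adjacent genes were called by limma. The pair comparison separated 9 pairs under every alternative run. The lowest fragment numbers in a library were 164 for SHFL, 257 for ISG20 and 263 for ZC3H12A, each in untreated cells.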
